A study of Mus musculus with 6 samples.

Results

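The cytoplasmic polyadenylation element binding (CPEB) proteins are encoded in the mouse by Cpeb1, Cpeb2, Cpeb3 and Cpeb4. Their transcripts were followed through the 11 probe sets whose platform annotation names exactly 1 gene, that gene being one of these 4, out of 45037 probe sets that are not controls. Cpeb1 had 1 such probe set, Cpeb2 had 3, Cpeb3 had 4 and Cpeb4 had 3. The samples were quadriceps muscle of male C57/BL6 mice aged 8 weeks, with 3 wild-type animals and 3 animals of the genotype labelled hSkeletal Actin -ERRg transgenic, each a separate biological replicate on its own Affymetrix array. In the transgenic animals the skeletal actin promoter, which is active in muscle fibres, drives ERRγ, a nuclear receptor without a known hormone whose gene is Esrrg. Both groups share strain, age and sex and differ by the transgene. How many founder lines the animals came from is not given in the sources used here. This family was selected on measured values: the Cpeb1 probe set had one of the largest negative differences in this same contrast, so the genotype differences of the family below are a description. Whether a member passes the threshold of the fit over all probe sets is given as a label of that fit, and it is no independent test of the family.

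CPEB proteins bind a short uridine-rich element near the end of target messenger RNAs through a pair of RNA recognition motifs and a zinc-binding domain. CPEB1 holds such messages silent with a short poly(A) tail, and after phosphorylation it recruits the polyadenylation machinery, which lengthens the tail and turns on translation. CPEB2, CPEB3 and CPEB4 form a more closely related branch that also controls translation, and the family is best known from oocytes, synapses and cell division.

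The 6 arrays were scaled to the same trimmed mean of 200, and their median signals were 52.1 to 56.1 in the wild-type arrays and 57.0 to 61.8 in the transgenic arrays. Esrrg, the gene on the transgene, gave 24.1 to 71.6 in the wild-type arrays and 12697 to 14427.2 in the transgenic arrays at its brightest probe set. Its 2 other tested probe sets, with differences of 0.40 and 0.35, were not called. The 8 fibre markers fixed for the tissue check were all bright, the dimmest being desmin (Des) with a mean signal of 5750. Of the 8, 1 rose: myoglobin (Mb), the oxygen-binding protein of muscle, went from 6933 ± 1671 to 18720 ± 1285 (SD, n = 3 each), a difference of 1.45 (limma adjusted p = 0.00018). Of the markers of other cells, most of those of endothelial cells rose, and in each other list at most 1 passed the limma test. The summed signal of 6 endothelial markers was 1788.9 to 1922.8 in the wild-type arrays and 3254.3 to 3592.4 in the transgenic arrays, and 5 of 6 rose in the limma test. That of 5 satellite cell and myoblast markers was 442.5 to 487.8 against 356.6 to 383.3, with 0 of 4 tested passing. Calcr was near background at a mean of 23.8, and was higher in transgenic muscle (17.6 to 30.0). Pax7 (52.7 to 24.3) and Myf5 (50.7 to 30.3) were also dim. That of 7 leukocyte markers was 1451.5 to 1807.0 against 998.3 to 1404.5, and Cd79b had a mean of 18.1. Of 4 tested, 1 fell: Lyz2, by far the brightest of that list, with means of 1053 in wild-type and 714 in transgenic muscle. For 5 fibroblast markers the sum was 15501 to 17341 against 14078 to 15138 (1 of 5, Dpt, fell). Sums of 4 nerve and Schwann cell markers were 592.2 to 645.6 against 646.2 to 844.2 (0 of 4 passed), and those of 4 adipocyte markers, 11256 to 25116 against 12552 to 16914, overlapped, with the highest value in wild-type 3. The part of these shifts in the family's differences was not tested.

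Of the family, Cpeb1 and Cpeb2 were lower in transgenic muscle at all of their probe sets, whereas every probe set of Cpeb3 and Cpeb4 overlapped between the genotypes. A probe set is counted as called when its Benjamini-Hochberg adjusted p from limma, fitted across all 26995 tested probe sets, is under 0.05. All 11 probe sets of the family passed the filter on dim signals, a mean signal above 37.8, but Cpeb2 1443017_at did so only through its wild-type arrays, with means of 107 in wild-type and 21.9 in transgenic muscle. With that probe set counted, 4 of 11 members were called, 4 lower and 0 higher, all of them from Cpeb1 and Cpeb2. Over all tested probe sets 11.5% were called, 5.16% lower and 6.38% higher. The genotypes did not overlap at the same 4 members, and at 31% of all tested probe sets, 13.2% lower and 17.8% higher. Because the contrast itself brought the family forward, nothing is read from these counts and shares.

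**Figure D1:**
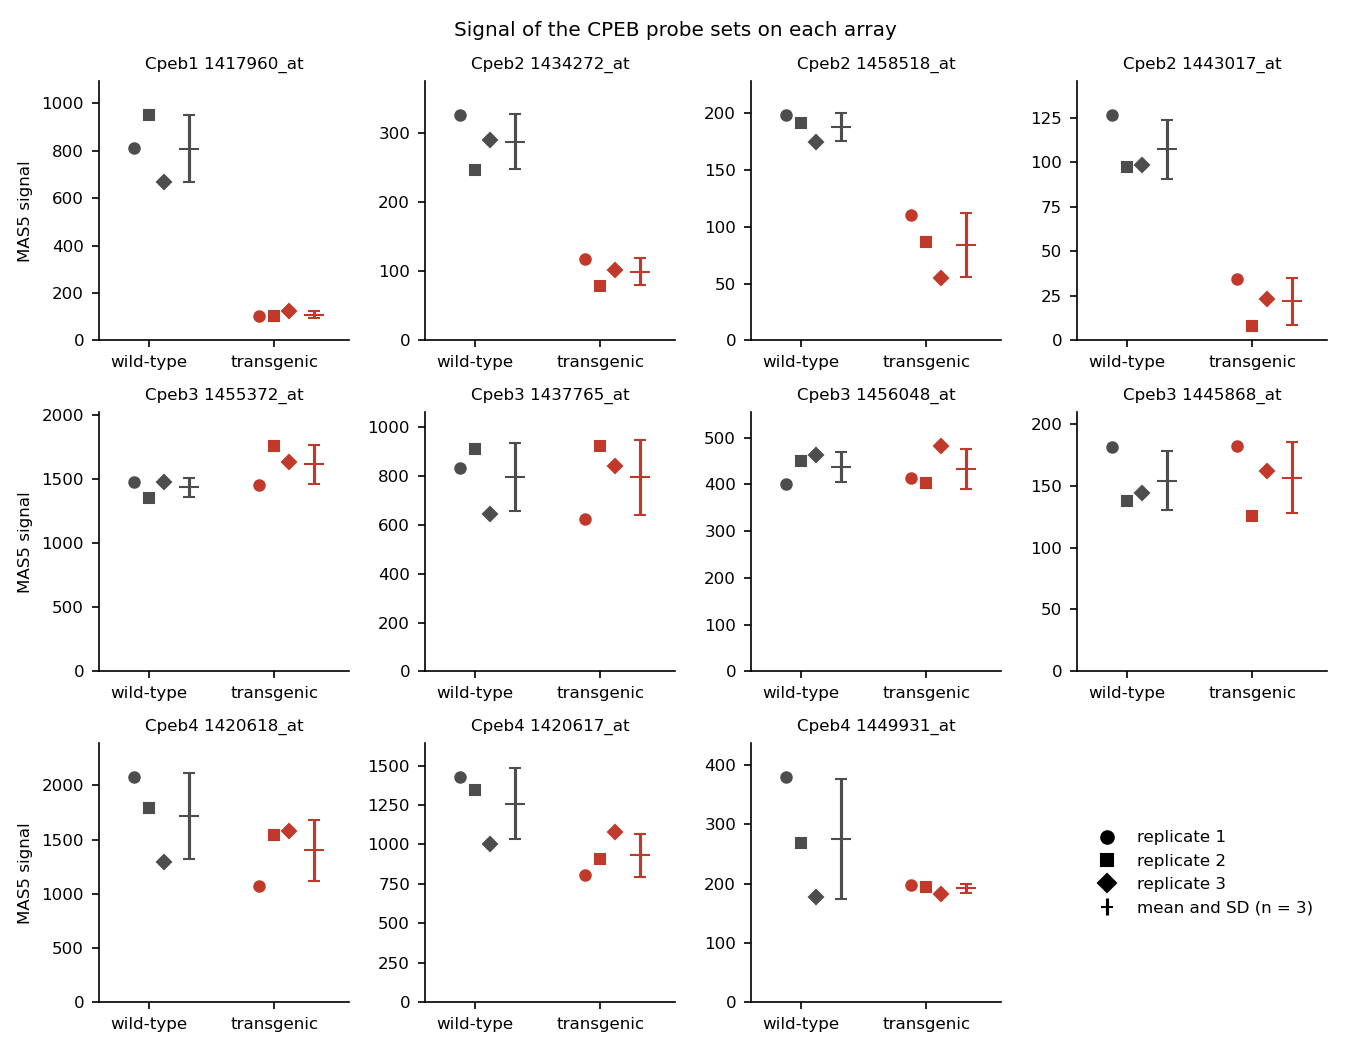
MAS5 signal (linear scale from 0, a separate range in each panel) of the 11 CPEB probe sets on the 3 wild-type and 3 transgenic arrays, with the mean and SD of each genotype beside the points. The transgenic points lie below the wild-type points at Cpeb1 and at all 3 Cpeb2 probe sets, and the groups overlap at the 7 probe sets of Cpeb3 and Cpeb4.

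The stretches before the annotated starts show what the members carry there; Cpeb1 is given because it differed most, and Cpeb3 and Cpeb4 because they overlapped between the genotypes. The sequences are RefSeq entries of the GRCm38.p6 build, 250 bases before a start, 5′ to 3′ in the direction of transcription. Capitals mark matches on either strand to the E-box CANNTG bound by myogenic and other bHLH factors, the GC box GGGCGG and the TATA box TATAAA.
Cpeb1: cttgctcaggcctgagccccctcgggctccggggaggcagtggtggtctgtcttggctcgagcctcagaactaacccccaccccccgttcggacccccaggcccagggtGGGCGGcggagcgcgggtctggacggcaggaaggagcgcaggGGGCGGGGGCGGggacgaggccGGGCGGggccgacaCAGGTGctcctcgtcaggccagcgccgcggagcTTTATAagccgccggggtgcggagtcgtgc
Cpeb3: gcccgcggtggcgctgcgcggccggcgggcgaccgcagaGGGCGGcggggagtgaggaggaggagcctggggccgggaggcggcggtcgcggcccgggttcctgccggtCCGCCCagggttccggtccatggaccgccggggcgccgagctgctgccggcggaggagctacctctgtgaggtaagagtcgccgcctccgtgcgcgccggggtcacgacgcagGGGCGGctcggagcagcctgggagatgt
Cpeb4: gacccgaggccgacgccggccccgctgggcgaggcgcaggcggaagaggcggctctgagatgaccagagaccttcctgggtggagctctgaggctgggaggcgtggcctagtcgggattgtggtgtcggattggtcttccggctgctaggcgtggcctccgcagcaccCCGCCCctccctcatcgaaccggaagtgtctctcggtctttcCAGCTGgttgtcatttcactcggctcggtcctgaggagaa
The Cpeb1 stretch lies at chr7:81454759-81455008 on the minus strand, the Cpeb3 stretch at chr19:37207472-37207721 on the minus strand and the Cpeb4 stretch at chr11:31870690-31870939 on the plus strand. Of the 4 genes, 3 were matched in the table of starts by symbol, and Cpeb2 was not. Cpeb3 has 3 starts in the table, of which the most upstream is shown.

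Cpeb1 has 4 matches to the GC box, the first base of each lying 141, 99, 93 and 77 bases before the start, where 32.7% of the 32841 stretches of this length hold at least 1. It has 1 E-box, CAGGTG, 63 bases before the start (66.2% of stretches hold a CANNTG), and 1 TATA box on the opposite strand at 30 bases (12.4%). Cpeb3 has 3 GC boxes and no E-box in the stretch shown, and Cpeb4 has 1 GC box and 1 E-box. The ERR response element, searched as TNAAGGTCA on both strands and held by 1.14% of stretches, had 0 matches in the 5 stretches of Cpeb1, Cpeb3 and Cpeb4. Its core AAGGTCA, contained in the former motif and held by 4.08%, had 0 matches as well. These counts say only which letters lie in these windows. The stretches shown are 74% G and C for Cpeb1, 78% for Cpeb3 and 66% for Cpeb4, and the median over all stretches is 52.4%.

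Cpeb1, the founding member and the one that works with Aurora kinase A and the GLD2 poly(A) polymerase in oocytes, had the largest difference of the family. Its probe set 1417960_at gave 810.6, 950.3 and 666.7 in wild-type 1 to 3 and 101.2, 101.6 and 125.3 in transgenic 1 to 3. All transgenic arrays lay far below the lowest wild-type array, at 12.5%, 12.6% and 15.5% of the wild-type mean. The means were 809 ± 142 and 109 ± 13.8 (SD, n = 3 each), a ratio of 7.40. On the log2(signal + 16) scale, in which the added 16 units damp the changes of dim probe sets, the difference of transgenic minus wild-type was -2.71 (SE 0.16). Of the 26995 tested probe sets, 13 had a lower difference. In bulk muscle, fewer cells that hold a transcript and less of it per cell cannot be told apart.

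Cpeb2, a member of the other branch that is known to bind target messages and restrain their translation, was lower at each of its 3 probe sets. At 1434272_at the signals were 325.0, 246.2 and 289.6 in the wild-type arrays and 117.2, 78.2 and 102.3 in the transgenic arrays. The highest transgenic array was less bright than the lowest wild-type array, and the difference was -1.40 (SE 0.18), with a ratio of means, wild-type over transgenic, of 2.89. At 1458518_at they were 197.8, 190.9 and 174.2 against 110.6, 86.1 and 55.1, a difference of -1.06 (SE 0.21). Here the transgenic arrays spread more than the wild-type arrays, with an SD of 27.8 against 12.1. At 1443017_at they were 126.3, 97.1 and 98.2 against 34.4, 7.9 and 23.4, a difference of -1.76 (SE 0.31). All of its transgenic signals lay below the filter level of 37.8, and the size of its difference depended on the added constant, at -2.44 with 1 unit added and -1.003 with 64. Transgenic 2 was the lowest transgenic array at 1434272_at and 1443017_at, and transgenic 3 the lowest at 1458518_at. Over all tested probe sets, 128 had a lower difference than 1434272_at and 349 than 1458518_at.

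Cpeb3, a translational regulator studied at synapses and as a partner of the antiproliferative protein Tob, overlapped between the genotypes at all 4 probe sets. At the brightest, 1455372_at, the signals were 1476.4, 1352.4 and 1480.9 in the wild-type arrays and 1457.5, 1756.1 and 1633.6 in the transgenic arrays. Transgenic 2 and 3 lay above every wild-type array and transgenic 1 lay among them, and the difference was 0.16 (SE 0.11). At 1437765_at the range was 643.8 to 913.4 in the wild-type arrays and 625.0 to 922.6 in the transgenic arrays, with a difference of -0.01 (SE 0.17). At 1456048_at it was 401.2 to 462.1 against 403.6 to 481.4 (-0.02, SE 0.12), and at 1445868_at 137.4 to 181.0 against 125.6 to 181.8 (0.01, SE 0.18). The latter 3 differences were smaller than their standard errors, and their sign turned under some of the settings tried, all without a call. After the arrays were brought to 1 median, 1455372_at differed by 0.01 and 1456048_at by -0.16.

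Cpeb4, a regulator of poly(A) tails in cell division and in stress responses, was lower on average at all 3 probe sets, with overlapping groups and no call. The brightest, 1420618_at, gave 2073.9, 1793.4 and 1291.2 in the wild-type arrays and 1073.5, 1545.8 and 1580.5 in the transgenic arrays, a difference of -0.29 (SE 0.19). Wild-type 3 lay inside the transgenic range. At 1420617_at the signals were 1425.5, 1345.8 and 1003.3 against 806.2, 909.6 and 1079.1, a difference of -0.42 (SE 0.15), and transgenic 3 exceeded wild-type 3 only. At 1449931_at they were 379.1, 268.5 and 176.9 against 198.3, 194.4 and 182.8, a difference of -0.42 (SE 0.22), and wild-type 3 was the lowest of the 6 arrays. The count of members called depended on several settings, among them the use of wild-type 3. Without it, 1420617_at (-0.57) and 1449931_at (-0.69) were called, while 1420618_at (-0.48) was not, and the number of members called went from 4 to 6. Wild-type 3 is also the array with the highest adipocyte sum, and the part of that in these values was not tested. Without wild-type 1 the 3 differences were -0.14 at 1420618_at, -0.32 at 1420617_at and -0.17 at 1449931_at. The probe set 1420617_at was also called after scaling to a common median (-0.57) and with array weights (-0.49).

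**Figure D2:**
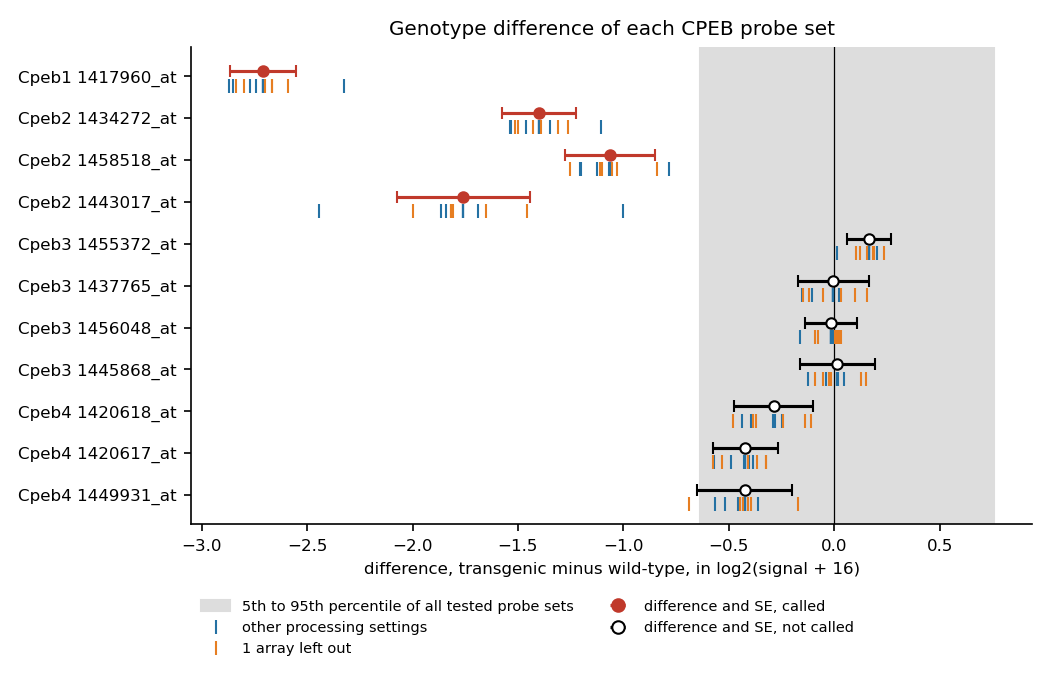
Difference of transgenic minus wild-type muscle in log2(signal + 16) for each CPEB probe set, as circles with SE bars (filled where called), with ticks for the values under other processing settings and with 1 array left out, over a band from the 5th to the 95th percentile of all tested probe sets (-0.64 to 0.76). Cpeb1 and the Cpeb2 probe sets lie to the left of the band at every tick, from -2.87 for Cpeb1 to -0.78 for Cpeb2, and the circles of Cpeb3 and Cpeb4 lie inside it.

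The genes whose levels followed Cpeb1 most closely over the 6 arrays were Aamdc, Bmpr1a, Spcs1, Sorbs2 and Anp32e, each by its brightest tested probe set. Pearson's r with 1417960_at was 0.999 for Aamdc, 0.998 for Bmpr1a and 0.997 for each of Spcs1, Sorbs2 and Anp32e. The 2 genotypes form separate clusters, so that r mainly reflects the gap between them, and 377 of 12525 genes had r above 0.95. After each genotype's mean was taken off, r was 0.95 for Aamdc and between 0.80 and 0.84 for the others. The genes were picked by r on these same 6 arrays, which favours high values within genotypes too. No likeness beyond the gap is read from them. Sorbs2, an adaptor of the actin cytoskeleton at Z-discs, came nearest to Cpeb1 in size, from 1340, 1410 and 1106 to 354.5, 299.8 and 361.3 (difference -1.87). Aamdc, named for a role in fat cell formation, went from 2258 ± 86.7 to 1270 ± 31.7 (SD, n = 3 each). Bmpr1a, a receptor for bone morphogenetic proteins, went from 1171 to 725, Spcs1, a subunit of the signal peptidase complex, from 3182 to 2056, and Anp32e, a histone chaperone, from 1487 to 996. These genes share the arrays and the gap between genotypes with Cpeb1.

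**Figure D3:**
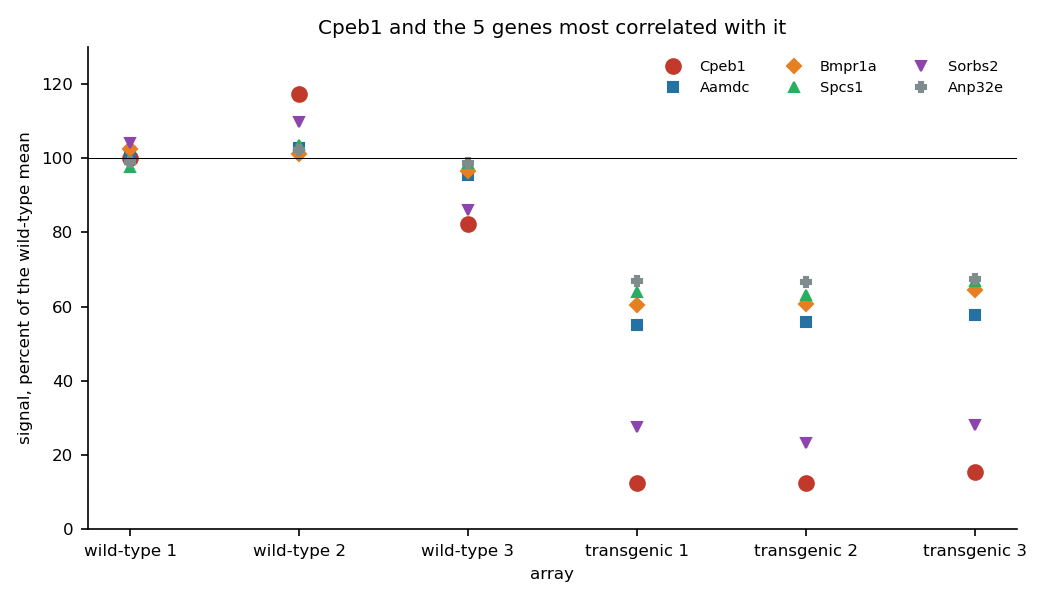
Signal on each of the 6 arrays, as a percent of the gene's own wild-type mean, for Cpeb1 and the 5 genes with the highest Pearson's r to it. All 6 genes are lower on the 3 transgenic arrays, Cpeb1 at 12.5% to 15.5% of its wild-type mean and the others less so, and wild-type 3 is the lowest wild-type array for each of them except Spcs1.

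For the other members the closest genes differed. Cpeb2 (1434272_at) was most like Tmx3, a thioredoxin-related membrane protein (r = 0.998), Rexo5, an RNA exonuclease (r = 0.995), and Rps6ka3, a ribosomal S6 kinase (r = 0.994), with 0.97, 0.97 and 0.91 within genotypes. As for Cpeb1, the choice by r on the same arrays favours high values within genotypes. Tmx3 spanned only 389.6 to 463.8 over the 6 arrays and did not pass the limma test, while Rps6ka3 went from 1387 ± 126 to 840 ± 55.9 (SD, n = 3 each). Rexo5 was dim, with means of 63.2 and 19.7, and cleared the filter only through its wild-type arrays. Of 12525 genes, 237 had r above 0.95 with Cpeb2, 32 with Cpeb3 and 17 with Cpeb4. Cpeb3 (1455372_at) was most like Mefv, which encodes pyrin (r = 0.992), Hcrt, the orexin precursor (r = 0.992), and Dohh, a hydroxylase of the translation factor eIF5A (r = 0.989). Hcrt lay between 64.9 and 74.2 on all arrays. Cpeb4 (1420618_at) was most like Taf5l, a subunit of a histone acetyltransferase complex (r = 0.998), Fgd6 (r = 0.982), and 4933433N18Rik (r = 0.974). None of the genes named for Cpeb3 and Cpeb4 passed the limma test. Mefv, Hcrt, Fgd6 and 4933433N18Rik were dim, with wild-type means of 63.9, 67.3, 66.4 and 60.8.

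The wider pathway was examined in 4 lists: the polyadenylation machinery, the partners in repression and deadenylation, the enzymes that modify CPEB proteins, and messenger RNAs reported to be bound or controlled by them. Of 72 genes, 10 had no single-gene probe set here, 7 were below the filter and 55 were tested. Of these, 4 rose, 8 fell and 43 did not pass (21.8% called), beside 13.4% of all 12529 genes, of which 7.65% rose and 5.75% fell. The lists were chosen with earlier results of these data known, so these shares and the limma p-values of listed genes are a description. Nothing is read from them about the pathway as a whole. The median log2 difference was -0.06, against 0.03 over all genes tested. When the arrays were brought to 1 median, the median over all probe sets moved by -0.14, and 3 of these genes rose and 13 fell. That scaling also changed the share of higher calls over all probe sets from 55.2% to 28.8%.

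In the polyadenylation machinery 16 genes were tested, of which 3 fell and 0 rose. The other 13 did not pass, and the median difference was 0.01. The 3 were poly(A)-binding proteins. Pabpc1, which coats the tails of cytoplasmic messages, gave 4158.4, 3351.9 and 4063.4 in the wild-type arrays and 2657.6, 3096.1 and 2612.0 in the transgenic arrays (difference -0.46, SE 0.11, limma adjusted p = 0.0259). Pabpc4, its inducible relative, gave 4682.4, 4456.9 and 3757.0 against 3249.5, 3112.6 and 3428.5 (-0.39, SE 0.11, limma adjusted p = 0.0382). Pabpn1, which acts on tails in the nucleus, gave 1303.0, 1336.8 and 1334.7 against 988.5, 998.3 and 1054.3 (-0.38, SE 0.10, limma adjusted p = 0.0281). The groups did not overlap at these probe sets, but the differences at the other tested probe sets of these genes were not called, and those of Pabpn1 were 0.08 to 0.16. The components that CPEB1 recruits did not pass, the scaffold Sympk narrowly so, with a difference of -0.41 (limma adjusted p = 0.0563). The deadenylase Parn differed by -0.35 and the GLD2 polymerase Tent2 by 0.03. For the cleavage and polyadenylation subunits Cpsf1 to Cpsf4 the differences were -0.17 to 0.45. The limma adjusted p ranged over the alternatives from 0.00555 to 0.115 for Pabpc1, 0.00714 to 0.148 for Pabpc4 and 0.0121 to 0.106 for Pabpn1. Pabpc1 did not pass without wild-type 1 (limma adjusted p = 0.107), transgenic 1 (0.102) or transgenic 3 (0.0849), and the call of Pabpc4 was lost without any array except wild-type 3 (0.148 and 0.134 for wild-type 1 and 2, and 0.115, 0.107 and 0.064 for transgenic 1 to 3). Pabpn1 did not pass when wild-type 1 (0.0883) or 2 (0.102), or transgenic 1 (0.0988) or 2 (0.0673), was omitted, by the same limma test.

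Of 19 tested partners in repression and deadenylation, Msi2 rose, Pum2 fell and 17 did not pass. The median was -0.08. Msi2, a Musashi protein that binds messages in their 3′ part and controls their translation, gave 1068.3, 960.0 and 999.2 in the wild-type arrays and 1694.9, 1790.8 and 1507.4 in the transgenic arrays (0.71, SE 0.11, limma adjusted p = 0.00191). Of its 7 other tested probe sets, 2 were also called higher and none lower. Pum2, a Pumilio protein that recruits deadenylases, gave 1265.2, 1238.2 and 1237.7 against 1068.1, 819.6 and 931.9 (-0.41, SE 0.12, limma adjusted p = 0.0458), and 1 of its 2 other tested probe sets was called lower. The adjusted p of Pum2 ranged from 0.0138 to 0.142 over the alternatives, and it passed with transgenic 1 omitted but not with any other array omitted (limma adjusted p = 0.142, 0.122 and 0.0623 for wild-type 1 to 3, and 0.128 and 0.0999 for transgenic 2 and 3). The CPEB3 partner Tob1 differed by -0.20, and the deadenylase subunit Cnot7 by -0.31 at their brightest probe sets, without passing. Other probe sets of genes that did not pass at the brightest were called: 1 of 2 was lower for Cnot7 (-0.49), 2 of 2 for Lsm14a (-0.63 and -0.51) and 1 of 4 for Tob2 (-0.63), and 1 of 3 was higher for Eif4e (0.41). By the probe set with the smallest p for each gene, a choice that favours calls, 2 genes of this list rose and 4 fell. The share over all genes by that choice was not computed, so nothing is read from this count.

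Of 9 tested enzymes that act on CPEB proteins, Btrc rose, and Aurka, Camk2d and Camk2b fell. The other 5 did not pass, and the median was -0.12. Aurka, the Aurora kinase that phosphorylates CPEB1, gave 221.0, 209.5 and 169.1 in the wild-type arrays and 120.0, 85.6 and 75.6 in the transgenic arrays (-0.99, SE 0.19, limma adjusted p = 0.00782). Its groups did not overlap, and it passed under all 16 alternatives, with an adjusted p of 0.00288 to 0.0416. Camk2d, a subunit of the calcium/calmodulin-dependent kinase II, gave 626.5, 914.3 and 603.8 against 257.7, 460.5 and 374.2 (-0.95, SE 0.21, limma adjusted p = 0.0162). Camk2b, another of its subunits, gave 476.3, 459.7 and 431.5 against 313.2, 284.3 and 283.7 (-0.61, SE 0.12, limma adjusted p = 0.00836). Btrc, a substrate receptor of a ubiquitin ligase that marks CPEB1 for breakdown, gave 316.8, 224.3 and 263.8 against 378.2, 427.4 and 466.3 (0.64, SE 0.15, limma adjusted p = 0.0216). Of 4 other tested Camk2d probe sets 1 was called lower, and of 2 of Btrc none was called. Camk2d did not pass without wild-type 2 (limma adjusted p = 0.0629) or transgenic 1 (0.0589), within a range of 0.00337 to 0.075, and Btrc without wild-type 2 (0.0888), transgenic 2 (0.0644) or transgenic 3 (0.0758), within 0.0168 to 0.0888.

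Of 11 tested messages reported as CPEB targets, Vegfa and Tjp1 rose, Stat5b fell and 8 did not pass. The median was 0.01. Vegfa, the angiogenic growth factor, gave 694.3, 740.9 and 820.7 in the wild-type arrays and 1878.6, 1462.7 and 2309.2 in the transgenic arrays (1.29, SE 0.16, limma adjusted p = 0.000594). Tjp1, the tight junction protein ZO-1, gave 399.3, 368.8 and 567.9 against 766.0, 803.9 and 949.1 (0.91, SE 0.16, limma adjusted p = 0.00529); endothelial cells, whose markers are higher here, also make it, and the part of that in its rise was not tested. Stat5b, a transcription factor of growth hormone signalling whose message CPEB3 is known to hold back, gave 1758.1, 1817.0 and 1430.8 against 616.7, 653.4 and 757.4 (-1.28, SE 0.13, limma adjusted p = 0.000175). The groups did not overlap for any of the 3, and each passed under all 16 alternatives. Camk2a, a synaptic CPEB1 target, was singled out after its values were seen: its brightest probe set did not pass (-0.37, limma adjusted p = 0.0921), while its 4 other tested probe sets were all called lower, at -0.62 to -1.30. Twist1 differed by -1.06 without passing (limma adjusted p = 0.053). It cleared the filter on dim signals only through its wild-type arrays, with means of 82.0 in wild-type and 33.6 in transgenic muscle. Nothing is read from its test. These are transcript levels, and the arrays do not measure translation or tail length.

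**Figure D4:**
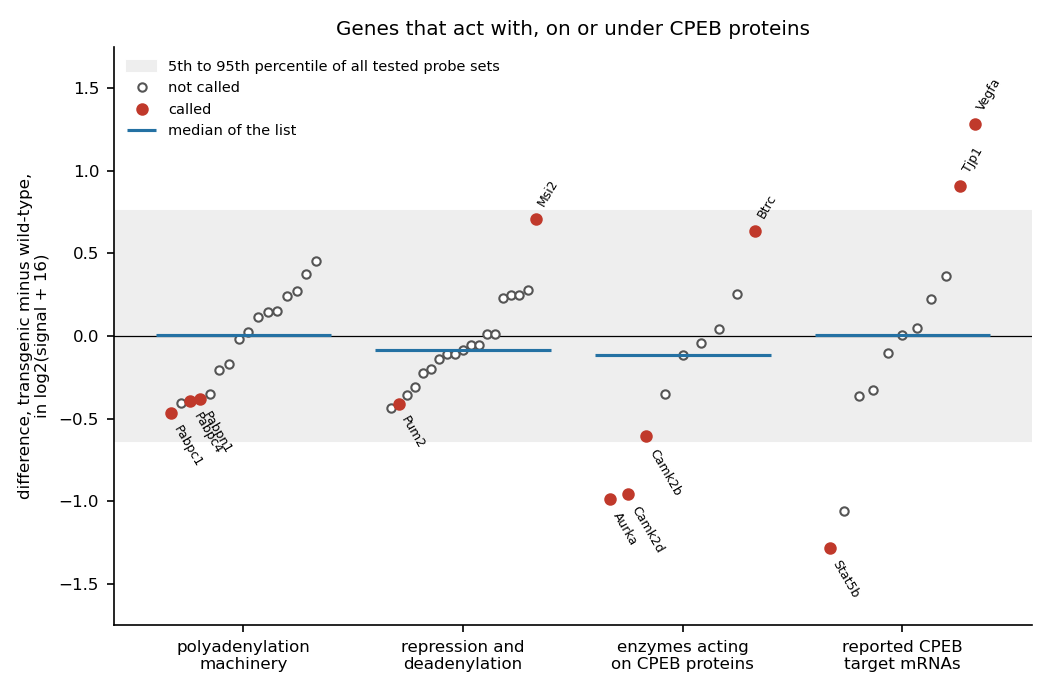
Difference of transgenic minus wild-type muscle in log2(signal + 16) for the 55 tested genes of 4 lists that act with, on or under CPEB proteins, 1 point per gene, filled where called, with each list's median as a line and a band from the 5th to the 95th percentile of all tested probe sets. The medians lie between -0.12 and 0.01, and Aurka, Camk2d, Stat5b, Vegfa and Tjp1 are the called genes outside the band.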

How the data were processed

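Biotin-labelled cRNA of each animal was hybridised to an Affymetrix array. Per the labels, the deposited values are MAS5 signal intensity per probe set on a linear scale (MAS5 is named in the submitters' processing notes, its version not given in the sources used here). They show a 2% trimmed mean of 200 on each array, and detection calls were not used here. From them, log2(signal + 16) was computed with no further normalization. Probe sets with a mean signal above the 40th percentile, 37.8, were tested: 26995 of 45101, without 64 controls. Gene names came from the platform annotation, where 34945 probe sets name 1 gene, 932 several and 9160 none, and 34741 matched the GRCm38.p6 gene table.

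The genotype contrast was fitted in limma 3.58.1 under R 4.3.3 (lmFit, then eBayes with an intensity trend). Its two-sided p-values were adjusted by Benjamini-Hochberg across the tested probe sets. In lists, a gene stands by its brightest probe set. No p is printed for the family itself, and 3 arrays against 3 limit precision. The members and lists were chosen with earlier results of these data known. The rule for named genes takes all CPEB and the brightest Esrrg probe sets, the 5 genes (Cpeb1) or 3 genes (other members) with the highest Pearson's r, and in each list up to 3 called genes per direction. Genes named outside this rule were chosen after their values were seen: Sympk, Parn, Tent2, Cpsf1 to Cpsf4, Tob1, Tob2, Cnot7, Lsm14a, Eif4e, Camk2a, Twist1 and the cell markers given by name. On simulated data of 26995 probe sets the test recovered 56 of 100 changed 2-fold and 98 of 100 changed 4-fold, and 11 of 165 calls were false. The labels give no link between same-numbered replicates of the genotypes other than the number. Alternatives changed the scaling, the filter, the added constant, the variance model, the weights, the block, the choice of probe set and the arrays used. Figures were made in Python 3.11.15 with matplotlib 3.10.9.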

Additional observations from a re-analysis of the deposited data

How the results depend on the processing

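Of 175 values of the 11 CPEB probe sets over 16 alternatives, 169 moved by less than the spread between replicates, 6 moved by more and 0 called values turned sign. The values that moved were Cpeb1 1417960_at (-2.32), Cpeb2 1434272_at (-1.11) and Cpeb2 1443017_at (-1.003) with 64 units added, Cpeb2 1443017_at (-2.44) with 1 unit added, and Cpeb3 1455372_at (0.013) and 1456048_at (-0.16) after scaling to a common median. The 4 called CPEB probe sets were called under 15 of the 16 alternatives, and under the filter at the 60th percentile, which leaves 1443017_at untested, the other 3 were. The alternatives reuse the arrays that brought the family forward, so these repeated calls are a description and no independent support. In the main fit 1443017_at cleared the filter only through its wild-type arrays. Over all probe sets, 3115 calls became 1584 without the intensity trend and 1710 to 3300 with 1 array left out (1710 when wild-type 1, 1876 when wild-type 2, 1917 when transgenic 1 and 2048 when transgenic 2 was omitted). The 12 calls among pathway genes became 6 without the trend and 7 to 14 with 1 array left out, the 7 without wild-type 2. The 3 calls in the polyadenylation list became 0 without the trend, with the replicate block, and without wild-type 1 or transgenic 1. Of 192 values of called pathway genes, 38 lost their call and 0 turned sign. The cause of these shifts was not tested.

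Deviations of same-numbered arrays from their genotype means correlated at 0.07, -0.08 and -0.02, so the numbers were not taken as pairs. With the replicate number as a block, Cpeb1 differed by -2.71 (SE 0.17), the same 4 CPEB probe sets were called, 8 pathway genes were called, and 2744 probe sets in all. Signal over background limits 1443017_at, whose highest signal on a transgenic array was 34.4.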
